A study of Arabidopsis thaliana with 9 samples.

Results

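The clade A protein phosphatases 2C (PP2Cs) of Arabidopsis thaliana were followed as a gene family in leaves under salt. The family was taken by locus identifier, as 9 genes, of which 7 had values and are described (ABI1, ABI2, HAB1, HAB2, PP2CA, HAI1 and HAI2) among 21176 genes in all. The other two, AHG1 and HAI3, were not analysed here. Messenger RNA was measured by sequencing in rosette leaves of 5-week-old plants of the accession Col-0 in water culture, in 3 groups of 3 libraries. Phase 1 plants were harvested 2 days after the salt in their medium had been raised in steps of 15 mM NaCl per day to 90 mM. Phase 0 plants were harvested 1 h after a shock with 105 mM NaCl. Control plants are labelled as control, and all 3 groups carry no transgene or mutation in the labels. The phases differ in dose, in time and in the way salt was given, so these cannot be told apart, and the labels give no clock time for the harvest and do not say if replicates are separate plants. The p-values therefore measure the spread between these libraries, which may be technical.

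Clade A PP2Cs are the phosphatases at the core of abscisic acid (ABA) signalling. In the absence of ABA they dephosphorylate and silence SnRK2 kinases. ABA bound to receptors of the PYR/PYL family holds the phosphatases inactive, which frees the kinases to phosphorylate ABF transcription factors and ion channels. Transcripts of most of these phosphatases are known to accumulate when ABA rises, and the family is known as a brake on the pathway. ABI1 and ABI2 are named after ABA-insensitive mutants, HAB1 and HAB2 after their similarity to ABI1, and the HAI genes after their strong induction by ABA.

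Values are read counts per gene that were normalised per library and rounded by the authors, called normalised counts below. Their totals ran from 22786946 to 27820610 per library. All fold changes and adjusted p-values are from limma on log2(value + 1), with Benjamini-Hochberg adjustment over the 18650 genes with a mean of at least 10, and a threshold of 0.05. In bulk leaf RNA, fewer cells of a type and less RNA per cell cannot be told apart. The leaf label was checked with markers: the 4 mesophyll genes (RBCS1A, CAB1, CA1, RCA) summed to 1045538 to 1226952 normalised counts in Phase 1 libraries, 1225593 to 1332642 in Phase 0 and 1421472 to 1632528 in Control. Guard cells, which use this pathway to close stomata, were followed by 4 genes (MYB60, FAMA, SLAC1, ICE1), whose sums were 1986 to 2250 in Phase 1, 1465 to 1765 in Phase 0 and 1516 to 1733 in Control. The root marker with values, CASP1, stood at 0 to 2 in every library. Mesophyll sums were thus lower in every Phase 1 library than in every Control library, but of the 4 genes CAB1 alone passed the threshold (log2 fold change -0.76, adjusted p = 0.00593 with limma), and CA1 had a value of 0.17. Guard cell sums were higher in every Phase 1 library, and of those genes ICE1 alone passed (0.72, adjusted p = 0.000891), with -0.06 for FAMA, 0.01 for MYB60 and 0.11 for SLAC1. Their part in the differences of the phosphatases was not tested.

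All 7 phosphatase transcripts were more abundant in both salt groups than in Control. Against Control, 7 of 7 rose in Phase 0, where 1.28% of all tested genes rose, and 7 of 7 rose in Phase 1, where 17.4% did. These 2 comparisons share the Control libraries, and the HAB2 call in Phase 0 was lost in 11 of 20 alternative settings, given below. For every member, all 6 salt libraries lay above all 3 Control libraries, a pattern held by 6.01% of tested genes. Passing the threshold upward in both phases was seen in 0.777% of tested genes. Between the phases, HAB1 was higher in Phase 1 than in Phase 0, and ABI1 was lower.

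**Figure D1:**
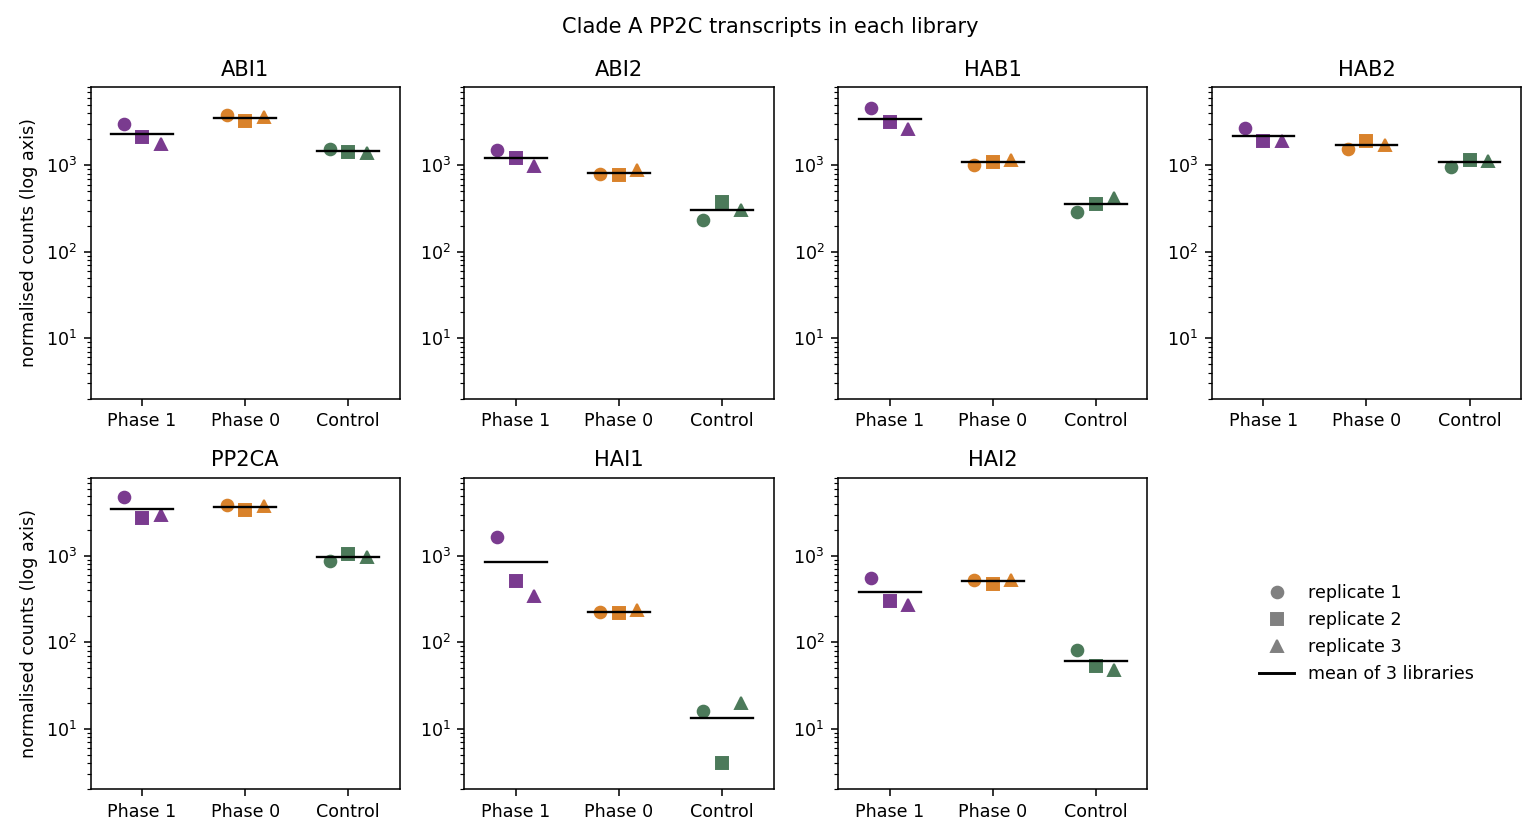
Normalised counts (log axis) of 7 clade A PP2C genes in each library of Phase 1, Phase 0 and Control, with 1 symbol per replicate and a bar at the mean of 3. All salt libraries lie above all Control libraries, and Phase 1 replicate 1 is the highest Phase 1 library for every gene.

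HAI1 (AT5G59220), a phosphatase known for its induction by ABA and drought, had the widest range. It stood at 1656, 516 and 348 normalised counts in Phase 1 replicates 1 to 3 and at 223, 218 and 238 in Phase 0, against 16, 4 and 20 in Control. The 3 groups did not overlap, the Phase 0 libraries were nearly alike, and the Phase 1 libraries were spread over a 4.76-fold range. The log2 fold change was 5.78 (SE 0.60, adjusted p = 6.76e-05 with limma) for Phase 1 against Control and 4.23 (SE 0.60, adjusted p = 0.00629) for Phase 0 against Control. The Phase 0 value was number 2 from the top among all tested genes. Because the Control values are a handful of counts, the fitted folds of 55.1 and 18.7 depend on single Control libraries. Without Control replicate 2, which held 4 counts, the Phase 1 value was 5.145 and the Phase 0 value 3.59 on the log2 scale.

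HAI2 (AT1G07430), the close relative of HAI1, had its higher mean in Phase 0. It stood at 560, 303 and 272 in Phase 1 replicates 1 to 3 and at 533, 477 and 526 in Phase 0, against 81, 53 and 48 in Control. Both salt groups lay clear of Control and overlapped each other, with 2 of the 3 Phase 1 libraries under every Phase 0 library. HAI2 rose 8.53-fold in Phase 0 (log2 fold change 3.09, SE 0.28, adjusted p = 0.00109 with limma) and 5.99-fold in Phase 1 (2.58, SE 0.28, adjusted p = 8.22e-05). Phase 1 against Phase 0 gave -0.51 with a 95% interval of -1.12 to 0.10, adjusted p = 0.197. Without Phase 1 replicate 1 the difference was -0.83 and passed the threshold (adjusted p = 0.0294).

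PP2CA (AT3G11410), also called AHG3 and known as a strong inhibitor of ABA responses in seeds and guard cells, was among the most abundant members. It stood at 4783, 2771 and 2973 in Phase 1 replicates 1 to 3 and at 3840, 3383 and 3789 in Phase 0, against 879, 1063 and 972 in Control. It rose 3.51-fold in Phase 1 (log2 fold change 1.81, SE 0.19, adjusted p = 7.09e-05 with limma) and 3.78-fold in Phase 0 (1.92, SE 0.19, adjusted p = 0.00146). The phases overlapped, and Phase 1 against Phase 0 gave -0.11 with a 95% interval of -0.52 to 0.31 (adjusted p = 0.712). This sign turned to 0.041 without Phase 1 replicate 2.

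HAB1 (AT1G72770), whose product binds and inactivates SnRK2 kinases such as OST1, was the member that passed the threshold upward between Phase 1 and Phase 0. It stood at 4575, 3175 and 2635 in Phase 1 replicates 1 to 3 and at 1003, 1084 and 1167 in Phase 0, against 291, 354 and 424 in Control. The 3 groups stepped upward without overlap, an order (Phase 1 above Phase 0 above Control) that HAB1 shared with ABI2, HAI1 and 3.03% of tested genes. HAB1 rose 9.54-fold in Phase 1 (log2 fold change 3.25, SE 0.20, adjusted p = 4.03e-06 with limma) and 3.07-fold in Phase 0 (1.617, SE 0.20, adjusted p = 0.00358). Phase 1 exceeded Phase 0 by 3.11-fold (1.64, SE 0.20, adjusted p = 0.000246), and this difference passed in all 20 alternatives.

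HAB2 (AT1G17550), the closest relative of HAB1, had the smallest change in Phase 0. It stood at 2679, 1921 and 1911 in Phase 1 replicates 1 to 3 and at 1555, 1925 and 1734 in Phase 0, against 968, 1157 and 1117 in Control. Salt libraries lay above Control, with Phase 1 and Phase 0 overlapping. It rose 1.99-fold in Phase 1 (log2 fold change 0.99, SE 0.15, adjusted p = 0.000808 with limma) and 1.61-fold in Phase 0 (0.68, SE 0.15, adjusted p = 0.0441). The Phase 0 call was lost in 11 of 20 alternatives, the highest adjusted p being 0.214, and the count was then 6 of 7. These include leaving out Control replicate 1 or 3 or any Phase 0 library, and the replicate block (adjusted p = 0.0927). Phase 1 against Phase 0 gave 0.31 (95% interval -0.04 to 0.65, adjusted p = 0.168).

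ABI1 (AT4G26080), the founding member of the family, was higher in Phase 0 than in Phase 1. It stood at 3003, 2153 and 1778 in Phase 1 replicates 1 to 3 and at 3811, 3280 and 3576 in Phase 0, against 1561, 1408 and 1400 in Control. Here the groups did not overlap and Phase 1 lay between the other two, an order seen in 0.15% of tested genes. ABI1 rose 1.55-fold in Phase 1 (log2 fold change 0.63, SE 0.17, adjusted p = 0.0161 with limma) and 2.44-fold in Phase 0 (1.29, SE 0.17, adjusted p = 0.00475). Phase 1 lay under Phase 0 by 1.57-fold (-0.65, SE 0.17, adjusted p = 0.0175). Leaving out Phase 0 replicate 1 or 3, or Phase 1 replicate 2 or 3, ended this call, with adjusted p between 0.0555 and 0.0585. The Phase 1 value against Control was 0.43 without Phase 1 replicate 1 (adjusted p = 0.0467). The annotated gene overlaps the neighbour AT4G26070 on the other strand at its 3′ end, where reads of the pair cannot be told apart without a strand setting.

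ABI2 (AT5G57050), the closest relative of ABI1, had the opposite order of the phases. It stood at 1485, 1218 and 970 in Phase 1 replicates 1 to 3 and at 802, 773 and 890 in Phase 0, against 234, 375 and 305 in Control. The groups did not overlap. ABI2 rose 4.02-fold in Phase 1 (log2 fold change 2.01, SE 0.20, adjusted p = 4.69e-05 with limma) and 2.74-fold in Phase 0 (1.45, SE 0.20, adjusted p = 0.00501). The difference between Phase 1 and Phase 0 was 0.56 (95% interval 0.12 to 0.99) and missed the threshold (adjusted p = 0.0572), as did that of HAI1 (1.56, interval 0.23 to 2.88, adjusted p = 0.0771). ABI2 passed in 5 of 20 alternatives and HAI1 in 4. Without Phase 1 replicate 1 the HAI1 difference was 0.90 (adjusted p = 0.253).

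Between the phases, 1 of 7 members was higher in Phase 1 and 1 lower. Among all tested genes 13.7% were higher and 14.4% lower, so the family's count is near the background. The median log2 difference was 0.31 over the 7 members and -0.01 over all tested genes. Against Control the median was 2.01 in Phase 1 and 1.617 in Phase 0, against 0.00 in Phase 1 and 0.01 in Phase 0 over all tested genes. Phase 1 replicate 1 was the highest of the Phase 1 libraries for 7 of 7 members, while 33.15% of tested genes were highest there. It was also the highest for 9 of 10 tested ABA output genes, and for 2 of 9 ABA receptors and 3 of 9 SnRK2 kinases. Without this library all 7 members still rose in Phase 1 against Control, with log2 fold changes from 0.43 for ABI1 to 5.13 for HAI1.

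**Figure D2:**
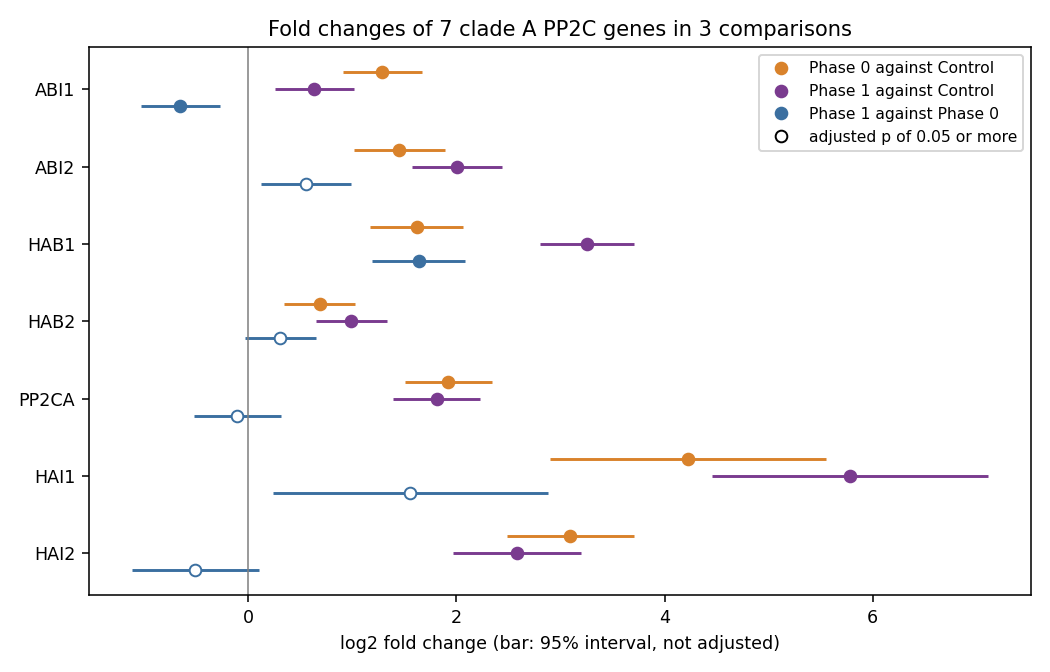
Log2 fold changes of 7 clade A PP2C genes for Phase 0 against Control, Phase 1 against Control and Phase 1 against Phase 0, with 95% intervals not adjusted for the number of genes; open points have an adjusted p of 0.05 or more. Every value against Control is positive, and between the phases HAB1 (1.64) and ABI1 (-0.65) pass the threshold in opposite directions.

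Levels were compared between members per kb of coding length, on the linear scale. Counts per gene may include untranslated exon parts, which coding length leaves out. The exons of ABI1 cover 2169 bases against 1305 coding, those of PP2CA 1800 against 1200 and those of HAB2 2642 against 1536. Whether the orders, overlaps and shares below hold per kb of exon was not tested. In Phase 1 the order was PP2CA (2924 ± 923), HAB1 (2254 ± 652), ABI1 (1771 ± 481), HAB2 (1413 ± 287), ABI2 (962 ± 202), HAI1 (676 ± 573) and HAI2 (285 ± 119), as normalised counts per kb with SD and n = 3. Most neighbours in this order overlapped in range, HAB2 and ABI2 being the exception. Within each library, however, the order of neighbours was the same in 3 of 3 Phase 1 libraries, apart from ABI2 above HAI1, which held in 2 of 3. In Phase 0 PP2CA (3059 ± 209) and ABI1 (2725 ± 204) overlapped at the top, followed without overlap by HAB2 (1132 ± 120) and by HAB1 (706 ± 53.4), whose range overlapped that of ABI2 (646 ± 47.9). HAI2 (385 ± 23.0) and HAI1 (182 ± 8.38) came last in Phase 0, each apart from its neighbour. In Control ABI1 led alone (1116 ± 69.5), followed by PP2CA (809 ± 76.7) and HAB2 (704 ± 64.8), whose ranges overlapped. In the pairs that overlapped, PP2CA lay above ABI1 and HAB1 above ABI2 in 3 of 3 Phase 0 libraries, and PP2CA above HAB2 in 3 of 3 Control libraries. ABI2 (240 ± 55.4) and HAB1 (232 ± 43.3) were not separable in Control, ABI2 being above in 1 of 3 libraries, and HAI2 (45.6 ± 13.4) and HAI1 (10.7 ± 6.70) lay far below.

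The summed level of the 7 members was 13930, 8878 and 8047 per kb in Phase 1 replicates 1 to 3 and 8997, 8434 and 9074 in Phase 0, against 3006, 3286 and 3178 in Control. The mean sum was 3.26 times Control in Phase 1 and 2.8 times Control in Phase 0, and Phase 1 replicates 2 and 3 lay within or just below the Phase 0 range. The make-up of this sum differed between groups. ABI1 held 17.3% ± 1.09 of it in Phase 1, 30.8% ± 1.43 in Phase 0 and 35.5% ± 3.78 in Control. HAB1 held 22.0% ± 1.12 in Phase 1, against 8.0% ± 0.64 in Phase 0 and 7.33% ± 1.22 in Control. These shares did not overlap between Phase 1 and either other group.

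HAB2 held 14.0% ± 1.47 in Phase 1 and 12.8% ± 1.84 in Phase 0, against 22.3% ± 1.12 in Control, and PP2CA held 28.5% ± 2.39 in Phase 1 and 34.6% ± 1.08 in Phase 0, against 25.6% ± 1.30 in Control. HAI1 held 5.91% ± 3.23 in Phase 1 and 2.06% ± 0.06 in Phase 0, against 0.34% ± 0.22 in Control. An exact two-sided permutation test of 3 against 3 libraries cannot go below p = 0.1, and 16 of the 21 share comparisons reached that value (Benjamini-Hochberg adjusted 0.131). ABI2 was among those that did not: it held 7.31% in Phase 0 and 7.54% in Control (exact p = 0.8).

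**Figure D3:**
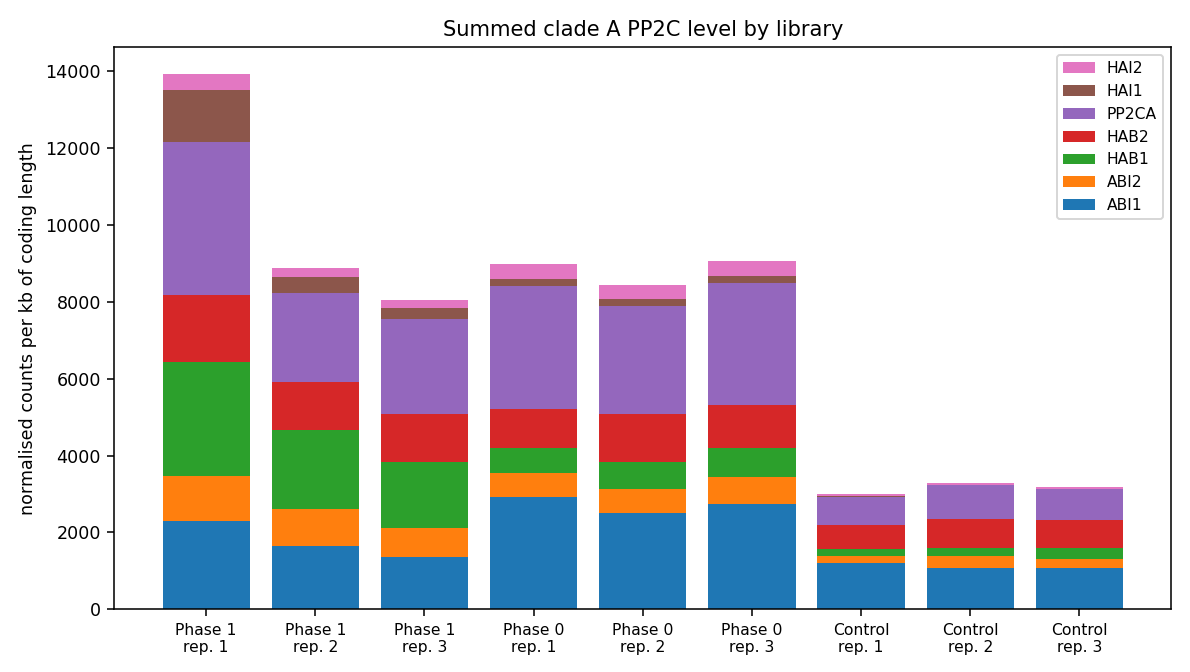
Stacked normalised counts per kb of coding length of 7 clade A PP2C genes, 1 bar per library of Phase 1, Phase 0 and Control. Salt libraries reach 8047 to 13930 against 3006 to 3286 in Control, and HAB1 (green) takes a larger part in Phase 1.

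The members are dispersed over the genome and differ in sequence. Per the RefSeq annotation of TAIR10.1, HAB1 lies at chr1:27389948-27393327 (plus strand), HAB2 at chr1:6034270-6037398 (plus strand) and HAI2 at chr1:2280746-2282828 (minus strand). PP2CA lies at chr3:3583782-3585850 (minus strand), ABI1 at chr4:13219915-13222376 (minus strand), ABI2 at chr5:23087122-23089631 (plus strand) and HAI1 at chr5:23894404-23896939 (minus strand). Counts were per gene, so exons and transcript forms are not told apart. Coding sequences were 79.5% identical over aligned bases between ABI1 and ABI2, 79.4% between HAB1 and HAB2 and 70.7% between HAI1 and HAI2. Both were closer to HAI3, whose values were not analysed (77.7% for HAI2 and 71.1% for HAI1). No stretch of 75 bases, the read length, in the exons of any member occurred elsewhere in the reference, so a read lying within a member's exon matches 1 place in the genome. The closest pairs in sequence were not the closest in response: over the 9 libraries the root mean square difference of centred log2 profiles was 0.65 for ABI1 and ABI2, 0.94 for HAB1 and HAB2 and 1.45 for HAI1 and HAI2. The smallest was 0.32, for ABI2 and PP2CA. These differences are not scaled to the size of a gene's change. HAI1, which changed most, was 1.37 from its nearest member, HAB1, with HAI2 next.

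The stretch of 300 bases before the annotated gene start is shown for the 4 members with the largest changes in Phase 0. It was searched for ACGTG, the core of the ABA-responsive element, which ABF factors bind. The part of such copies in the rise of the members was not tested. Sequences are RefSeq TAIR10.1, written 5′ to 3′ on the gene's strand: HAI1 (chr5:23896940-23897239, minus strand), HAI2 (chr1:2282829-2283128, minus strand), PP2CA (chr3:3585851-3586150, minus strand) and HAB1 (chr1:27389648-27389947, plus strand). Capitals mark ACGTG or its reverse complement CACGT, with overlapping copies merged.
HAI1: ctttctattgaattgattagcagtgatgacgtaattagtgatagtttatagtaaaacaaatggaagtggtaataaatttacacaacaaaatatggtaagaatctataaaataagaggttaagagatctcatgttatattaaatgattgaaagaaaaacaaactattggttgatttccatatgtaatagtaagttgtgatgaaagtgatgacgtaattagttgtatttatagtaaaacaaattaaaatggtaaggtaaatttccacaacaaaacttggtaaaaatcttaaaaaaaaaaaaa
HAI2: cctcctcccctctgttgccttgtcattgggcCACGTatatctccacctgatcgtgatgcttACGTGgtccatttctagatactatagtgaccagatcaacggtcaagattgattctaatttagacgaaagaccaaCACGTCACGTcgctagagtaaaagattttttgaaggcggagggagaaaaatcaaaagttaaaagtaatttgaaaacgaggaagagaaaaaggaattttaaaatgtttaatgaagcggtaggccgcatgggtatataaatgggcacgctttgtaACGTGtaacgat
PP2CA: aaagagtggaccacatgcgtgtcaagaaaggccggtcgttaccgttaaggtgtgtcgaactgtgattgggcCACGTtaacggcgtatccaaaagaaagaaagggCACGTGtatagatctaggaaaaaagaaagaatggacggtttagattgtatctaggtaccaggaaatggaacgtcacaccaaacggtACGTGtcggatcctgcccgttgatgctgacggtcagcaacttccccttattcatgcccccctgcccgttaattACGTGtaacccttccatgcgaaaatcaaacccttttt
HAB1: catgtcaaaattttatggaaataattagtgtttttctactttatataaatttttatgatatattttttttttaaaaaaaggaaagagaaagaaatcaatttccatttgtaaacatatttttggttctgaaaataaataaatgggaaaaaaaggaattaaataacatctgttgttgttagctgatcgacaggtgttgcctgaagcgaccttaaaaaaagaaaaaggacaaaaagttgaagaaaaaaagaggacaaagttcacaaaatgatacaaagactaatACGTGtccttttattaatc

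HAI2 and PP2CA held 5 copies each on both strands, a number of 4 or more being found in 1.6% of 27443 promoters of protein-coding genes. One G-box, CACGTG, which contains the core on both strands, lay in the PP2CA window. HAB2 held 2 copies, HAB1 and ABI1 1 each, and ABI2 and HAI1 none, and 25.6% of promoters held at least 1. HAB1 had its copy 19 bases before the start, while that of ABI1 lay 286 bases before it. In the 1000 bases before the start, HAB1 and HAI2 held 6 copies, PP2CA 5, HAB2 2, ABI1 and ABI2 1 each and HAI1 none, and 54.4% of promoters held at least 1, 3.0% at least 5 and 1.5% at least 6. HAI1 has 2 annotated transcripts whose starts lie 237 bases apart, and the window precedes the outer one. The drought-responsive element core CCGAC was found once, in PP2CA (13.9% of promoters), and the evening element AAATATC once, in ABI2 (14.4%), both strands searched. These are matches of letters, not measured sites.

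Other genes of the pathway were counted by list. Among all tested genes 18.6% fell in Phase 1 and 1.66% in Phase 0 against Control, beside the 17.4% that rose in Phase 1 and 1.28% in Phase 0. Of 9 tested ABA receptor genes, 0 rose and 5 fell in Phase 1, and 0 rose and 5 fell in Phase 0. PYL4 (AT2G38310) stood at 284, 513 and 433 in Phase 1 replicates 1 to 3 and at 210, 164 and 193 in Phase 0, against 1590, 826 and 1024 in Control. It fell 2.77-fold in Phase 1 (adjusted p = 0.00183 with limma) and 5.84-fold in Phase 0 (adjusted p = 0.00167). PYL8 (AT5G53160), a receptor known to act in roots, fell in Phase 1 to 530 ± 36.9, against 1562 ± 396 in Control. In Phase 0 it did not pass (log2 fold change -0.38, adjusted p = 0.281 with limma). PYL6 and PYL5 fell in both phases, PYL6 at low counts (2.33 ± 1.53 in Phase 1 and 4.00 ± 2.65 in Phase 0, against 33.0 ± 13.2 in Control). PYL1 fell in Phase 0 and did not pass in Phase 1 (-0.26, adjusted p = 0.239 with limma). The 5 receptors that fell were thus not the same genes in both phases. The median log2 fold change of the receptors was -0.79 in Phase 1 and -1.24 in Phase 0.

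Of 9 tested SnRK2 kinase genes, the direct substrates of the phosphatases among them, 0 passed in Phase 0 with limma (2 had an unadjusted p under 0.05, both lower), and 3 rose and 2 fell in Phase 1, the falls being near the share of all genes. SNRK2.2 (AT3G50500), an ABA-activated kinase, had 631, 855 and 725 in Phase 1 replicates 1 to 3 and 3896, 4272 and 3462 in Phase 0, against 4528, 3864 and 3604 in Control. It fell 5.44-fold in Phase 1 (adjusted p = 3.26e-06 with limma), and its partner SNRK2.3 (AT5G66880) fell to 286 ± 52.7 in Phase 1, against 937 ± 47.6 in Control. OST1 (AT4G33950), the guard cell kinase, rose 1.4-fold in Phase 1 (adjusted p = 0.0194), a call that was lost without Control replicate 3 (adjusted p = 0.0699) and without Phase 1 replicate 1 or 3. SNRK2.8 (AT1G78290) rose 2.76-fold (adjusted p = 0.00254). Of 5 ABF-type factors, 2 rose and 1 fell in Phase 1, and 3 rose in Phase 0. ABF3 (AT4G34000) stood at 5816 ± 1551 in Phase 1 and 2233 ± 342 in Phase 0, against 1054 ± 108 in Control, and rose in both. ABF1 (AT1G49720) fell in Phase 1, to 200 ± 17.9, against 1107 ± 131 in Control. ABI5 (AT2G36270), the seed factor of the same family, rose 2.69-fold in Phase 0 at a low level (69.7 ± 7.64, against 25.3 ± 3.79 in Control). The Phase 0 calls of ABF3, ABI5, PYL5 and PYL6 were each lost without at least 1 library, and that of PYL5 in Phase 1 too.

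Of 10 genes whose products bind or degrade clade A PP2Cs, 0 passed in Phase 0 with limma (3 had an unadjusted p under 0.05), and 2 passed in Phase 1, which is under the share of all genes. COP1 (AT2G32950), part of a ubiquitin ligase, rose 2.02-fold in Phase 1 while DOG1 (AT5G45830), a binding partner of AHG1 known for its role in seed dormancy, fell 4.20-fold. Among 10 tested ABA output genes, 7 rose and 1 fell in Phase 1, and 5 rose in Phase 0. Their median log2 fold change was 2.101 in Phase 1 and 1.77 in Phase 0, beside 2.01 in Phase 1 and 1.617 in Phase 0 for the phosphatases. RD29A (AT5G52310), a dehydration gene, stood at 3971 ± 1213 in Phase 1 and 32530 ± 2133 in Phase 0, against 8916 ± 3104 in Control. It fell in Phase 1 and rose in Phase 0 against Control. RD20 (AT2G33380), a caleosin, stood at 15950 ± 11270 in Phase 1 and 3003 ± 721 in Phase 0, against 699 ± 164 in Control, and rose in both. NCED3 (AT3G14440), for the regulated step of ABA synthesis, stood at 192 ± 84.0 in Phase 1 and 434 ± 29.4 in Phase 0, against 127 ± 28.4 in Control. It rose in Phase 0 and in Phase 1 did not pass (log2 fold change 0.52, adjusted p = 0.193). The Phase 0 calls of NCED3 and RD20 did not pass when the third library of Control or of Phase 0 was dropped, nor did that of RD20 without Phase 0 replicate 1 or 2.

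Other PP2C clades, which are not held by the ABA receptors, were set beside the family. Of 9 clade D genes, 1 rose and 1 fell in Phase 1, under the share of all genes, and 0 passed in Phase 0 with limma (2 had an unadjusted p under 0.05). The one that fell, APD7 (AT5G02760), had 12, 34 and 94 in Phase 1 replicates 1 to 3 and 400, 206 and 131 in Phase 0, against 835, 1159 and 1184 in Control. The log2 fold change was -4.90 in Phase 1 (SE 0.61, adjusted p = 0.000218 with limma), and it was -4.18 without Phase 1 replicate 1 and -5.62 without Phase 1 replicate 3. The one that rose, AT3G51370, differed by 0.48 (adjusted p = 0.00648). Of the 3 tested clade B genes, 0 passed in Phase 1 or in Phase 0 with limma, and 1 had an unadjusted p under 0.05, in Phase 0. The median over clade D was 0.11 in Phase 1 and -0.07 in Phase 0, beside 2.01 in Phase 1 and 1.617 in Phase 0 for clade A.

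**Figure D4:**
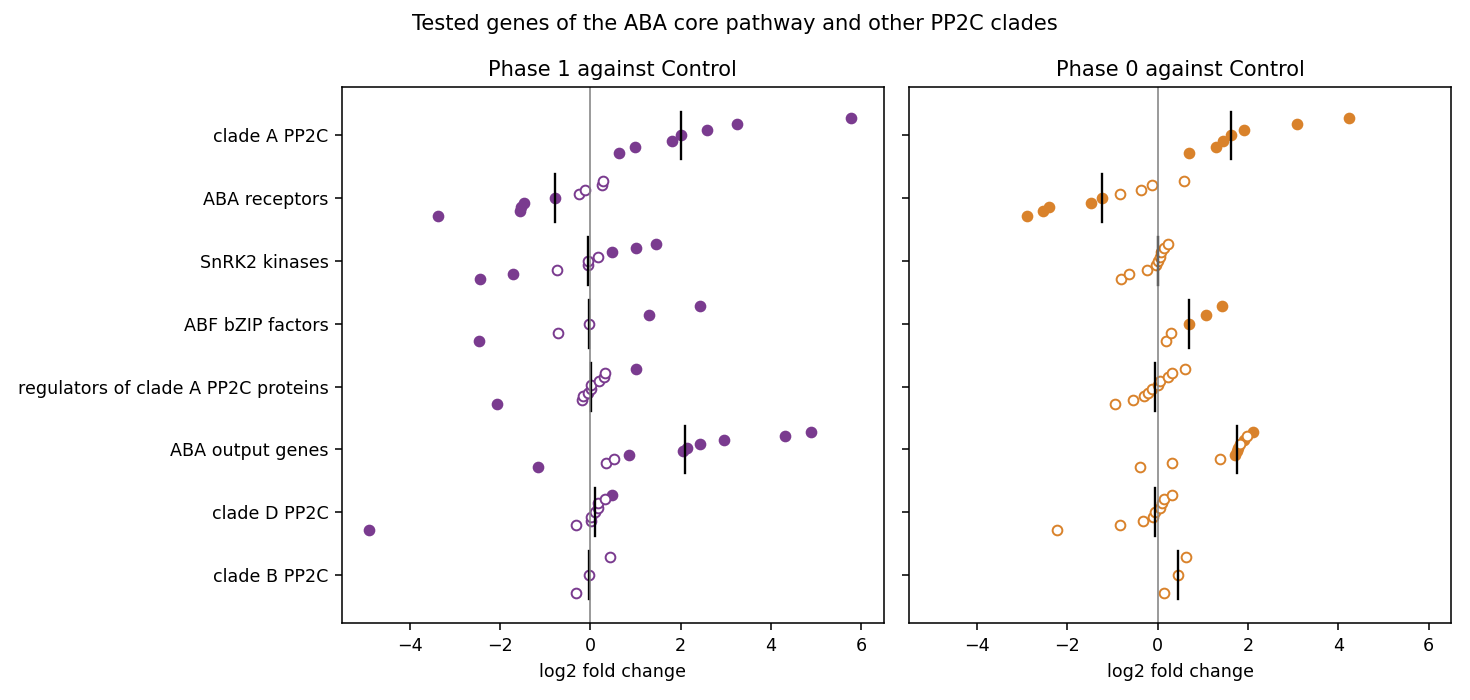
Log2 fold changes of the tested genes of clade A, the other lists of the pathway and PP2C clades D and B for Phase 1 against Control (left) and Phase 0 against Control (right), with filled points past an adjusted p of 0.05 and a bar at each median. Clade A lies wholly to the right of 0, and the receptors that pass lie to the left in both panels.

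LHY and TOC1, a pair of clock genes chosen after their values were seen, differed between Phase 1 and the other groups. LHY (AT1G01060), a morning transcription factor, stood at 6252 ± 1303 in Phase 1 and 79.0 ± 33.1 in Phase 0, against 97.0 ± 2.65 in Control. TOC1 (AT5G61380), an evening gene, stood at 248 ± 50.9 in Phase 1 and 2068 ± 29.7 in Phase 0, against 1009 ± 74.6 in Control. TOC1 passed the threshold in both phases, downward in Phase 1 and upward in Phase 0. The part of the clock in the differences of the phosphatases was not tested.

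The genes with the profile most like each member over the 9 libraries were sought among 6817 named genes with a mean of at least 100, by the root mean square difference of centred log2 values. For ABI1 the nearest was XERICO (AT2G04240), a RING protein gene known to raise ABA levels, at 0.16, against a median of 0.64 over the candidates. For PP2CA it was P5CS1 (AT2G39800), of proline synthesis, at 0.24, with 18440 ± 7496 normalised counts in Phase 1 and 15060 ± 144 in Phase 0, against 5479 ± 880 in Control. For HAI2 the nearest was EDL3 (AT3G63060), an F-box gene, at 0.26. The second nearest was CPK15 (AT4G21940) for PP2CA (0.29) and GolS2 (AT1G56600) for HAI2 (0.56). RD26 (AT4G27410), a NAC factor, was the third nearest for both PP2CA (0.30) and HAI2 (0.57).

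HAB1 was nearest to FBH3 (AT1G51140), a bHLH factor also called AKS1, at 0.25, followed by the wax gene KCS2 (AT1G04220) at 0.28 and HB-12 (AT3G61890) at 0.28. For HAI1 the nearest was PUB19 (AT1G60190), a U-box ubiquitin ligase gene, at 0.88. AFP1 (AT1G69260), of the ABI5-binding proteins, followed at 0.99 and WSD1 (AT5G37300), a wax ester synthase gene, at 1.09. ABI2 was nearest to MEE25 (AT2G34850) at 0.11 and to BETA-VPE (AT1G62710), a vacuolar processing enzyme, at 0.20. HAB2 was nearest to ATG18G (AT1G03380), of autophagy, at 0.13. For HAB2 the median over the candidates was 0.52, against 2.58 for HAI1. The differences are not scaled to the size of a gene's change, so they are not on 1 scale between members.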

How the data were processed

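The authors' values are whole-number scores per gene, 1 column per library. The file name, the whole numbers and the unequal totals point to read counts that the authors normalised and rounded before depositing them. Per the submitters' processing notes the build is TAIR10 and the tools include DESeq2 1.62, featureCounts 1.4.5-p1, Subread, STAR 2.4.0a and FastQC, without roles. The strand setting is not given in the sources used here. Read depth is therefore unknown and no counting interval is given. Libraries were grouped by their titles.

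R 4.3.3 and limma 3.58.1 (trend option on) were applied to log2(value + 1) of the 18650 genes with a mean of at least 10, with all 9 libraries in 1 model of 3 groups. The script was tested on simulated data. Members and lists were chosen with earlier results of these data known. By rule, named genes were all members, up to 3 genes per list with the largest changes past the threshold, and the 3 nearest profiles of each member, not all printed. LHY, TOC1 and some list genes were added after their values were seen. Coding lengths, symbols and promoters were read by locus from RefSeq TAIR10.1, since the table holds no coordinates. Python 3.11.15, scipy 1.17.1 and Biopython 1.88 served for shares, alignments and motifs. Alternatives were other pseudocounts, filters, scalings, fits and thresholds, the replicate number as a block, and libraries left out.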

Additional observations from a re-analysis of the deposited data

How the results depend on the processing

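Of the 20 alternatives, 7 members rose in Phase 0 in 9 and 6 in 11, HAB2 being the one lost. In Phase 1 against Control 7 rose in 19, and 6 at a threshold of 0.01. Between the phases the count of 2 became 4 in a fit to the 2 groups alone and without Control replicate 2, and 1 at 0.01. With 1 library left out it ranged from 1 to 4, that for Phase 0 from 6 to 7 and that for Phase 1 was 7. PP2CA between the phases was -0.11, and from -0.35 (without Phase 1 replicate 1) to 0.041 (without Phase 1 replicate 2). At a threshold of 0.01 all genes called were 124, 3918 and 2880 for Phase 0 against Control, Phase 1 against Control and Phase 1 against Phase 0, against 547, 6724 and 5249. Without Control replicate 1 and Phase 0 replicate 2 the first was 212. With 1 library left out it ranged from 118 (Phase 0 replicate 3) to 882 (Control replicate 2), with 173 without Control replicate 3 and 183 without Phase 0 replicate 2. The others ranged from 4892 to 6757 and from 3379 (without Phase 0 replicate 2) to 6710. Scaling to equal totals moved the median of all genes to 0.10 in Phase 0 and 0.14 in Phase 1 (log2), and the share of calls that were higher to 65.6% and 62.0%, against 43.5% and 48.3%, and every member stayed higher. The cause of these shifts was not tested.

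With the replicate number as a block, 372, 6261 and 4835 genes and 6, 7 and 2 members passed. Same-numbered libraries had correlations of deviations from -0.25 to 0.25, against -0.34 to 0.33 for libraries of different number. The numbers were therefore not taken to pair them, though deviations from a mean of 3 are not independent. Shares were also computed with libraries left out, an alternative chosen after seeing the data: the difference of ABI2 between Phase 0 and Control, -0.24 percentage points, ranged from -0.95 without Control replicate 1 to 0.48 without Control replicate 2. Of 28 changes against Control named outside the family, also tried after seeing the data, 18 kept their call in every alternative that retained the gene and 0 turned round; the calls lost were those of PYL5, PYL6, ABF3, ABI5, RD29A, RD20, NCED3 and TOC1 in Phase 0 and of PYL5 and OST1 in Phase 1. Leaving values undivided by length turned no share difference round. Whether a low count was a few reads, as in HAI1 in Control, is limited by the unknown depth.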
